A study of Mus musculus with 21 samples.

Results

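The comparison described here set the ventral pons on the side of a cut facial nerve against the opposite side of the brainstem 7 days after surgery, by RNA sequencing. It used 6 of the 21 libraries of the study, 3 from the lesion side and 3 from the contralateral side, and covered the 22294 genes, of 45664 in the table, whose counts summed to at least 30 over all libraries. All mice were C57BL/6 and CX3CR1GFP/wt, so that 1 copy of Cx3cr1, the gene of the microglial fractalkine receptor, carried GFP in the lesioned, contralateral and unoperated samples alike. The facial nerve was cut on 1 side, at the right stylomastoid foramen, in mice aged 8 weeks. Day 7 tissue came from mice aged 9 weeks, day 14 tissue from mice aged 10 weeks and day 30 tissue from mice aged 12 weeks, with 3 lesion and 3 contralateral libraries at each, and 3 unoperated day 0 libraries came from the left pons at 8 weeks. By the sample labels the lesion side was the right side and the contralateral side the left at every time point, so that lesion and body side cannot be told apart. The dissected block held the facial nucleus together with parts of neighbouring reticular and trigeminal nuclei.

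Facial motor neurons are cholinergic cells whose axons leave the brainstem to drive the muscles of the face, and cutting the nerve separates their cell bodies from those muscles without opening the brain. Axotomised motor neurons are known to switch from transmission towards a growth programme, in which injury-induced transcription factors, cytoskeletal proteins, neuropeptides and growth factor receptors appear while cholinergic enzymes and synaptic receptors decline. Microglia, the resident macrophages of the brain, are known to gather around the injured cell bodies, and astrocytes nearby to become reactive.

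The 6 libraries held 17358868 to 23027360 counts each, of which 3.62 to 4.45 percent fell on mitochondrial genes. The first principal component, with 27.1 percent of the variance over these 6 libraries, separated the sides. Markers of the expected tissue were present on both sides, among them Chat and Tbx20 of cranial motor neurons and Tmem119 and Siglech of microglia. One library stood apart in its choroid plexus markers. The third lesion library held choroid plexus RNA, with the 14 marker genes of that tissue summing to 6822 CPM (counts per 1000000 counts of the library) against 656 and 612 CPM in the other lesion libraries and 632 to 654 CPM on the contralateral side. Results that touch it are given below with and without that library.

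At an adjusted p under 0.05 (edgeR quasi-likelihood test, Benjamini-Hochberg adjustment over all genes tested), 347 genes were higher on the lesion side, 1.56 percent of those tested, and 21 were lower, 0.0942 percent. In 367 of these 368 genes (all but Lrrc3) the 3 libraries of one side all lay above the 3 of the other; over all genes tested the sides stood apart this way in 7.26 percent (higher) and 5.26 percent (lower). The median log2 difference was 0.79 among genes that rose and −0.42 among genes that fell, and 129 of the rises but 7 of the falls reached 2-fold. Changes of 4-fold or more were found in 53 rising genes. In 68 of the 347 rising genes the contralateral mean was under 1 CPM. Of all 22294 genes tested, 15429 had a mean of at least 1 CPM over the 6 libraries and the rest less, so low levels were found among other genes too. That mean takes in both sides, and the contralateral mean alone was not counted over all genes. Labels do not say whether libraries with the same number came from 1 mouse, and the main test did not use the number. The p-values measure the spread between samples within groups, estimated over the 7 groups of all 21 libraries. In bulk tissue, fewer cells of a type and less RNA per cell cannot be told apart.

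**Figure D1:**
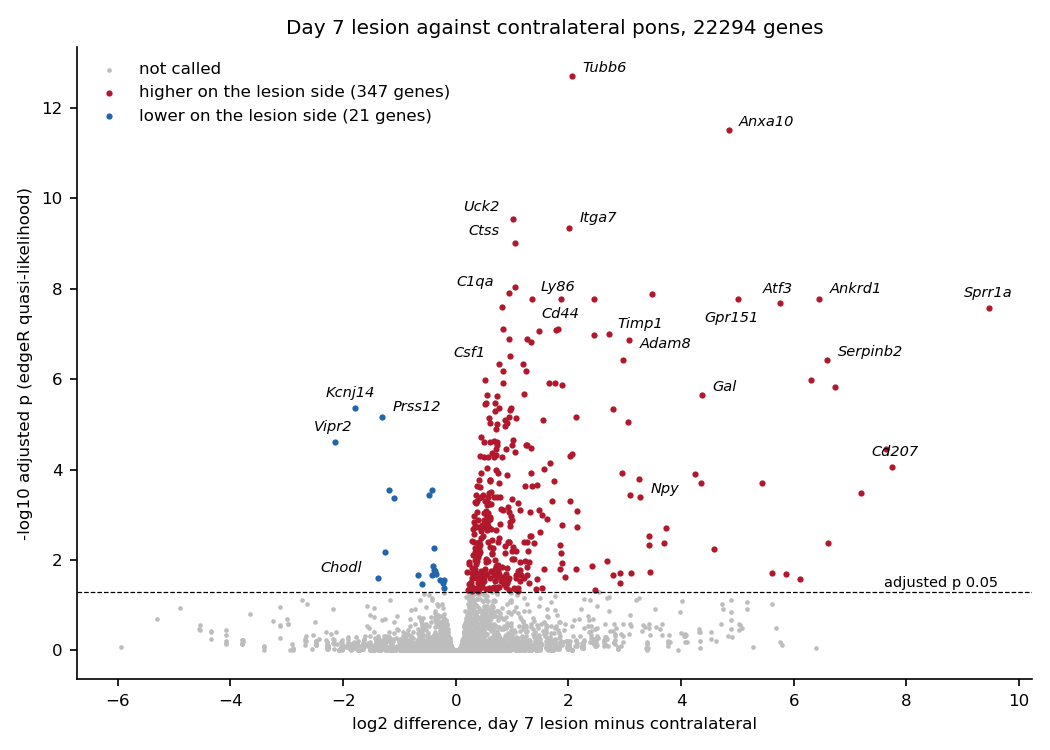
Each point is 1 of 22294 genes, placed by its log2 difference between the day 7 lesion and contralateral sides (x axis) and by −log10 of its adjusted p (y axis); red marks the 347 genes called higher and blue the 21 called lower. The rises outnumber the falls and reach a log2 difference of 9.46 in Sprr1a, while the largest fall, in Vipr2, is −2.14.

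The largest change was in Sprr1a, a small proline-rich protein known from regenerating sensory and motor neurons. It measured 216, 295 and 168 CPM in the 3 lesion libraries and 0.308, 0.299 and 0.341 CPM in the contralateral ones. The sides were apart by a log2 difference of 9.46 ± 0.50 (SE; adjusted p = 2.6e-08, edgeR quasi-likelihood test with Benjamini-Hochberg adjustment), and day 0 libraries were at 0.155 to 0.422 CPM. Atf3, a stress-induced transcription factor that is a standard mark of axotomised neurons, read 79.8, 96.0 and 72.2 CPM against 1.64, 1.35 and 1.61 CPM. Its log2 difference was 5.75 ± 0.31 (adjusted p = 2.1e-08), and the lowest lesion library was far above the highest contralateral one. Anxa10, an annexin, read 11.3, 11.3 and 8.10 CPM against 0.411, 0.249 and 0.389 CPM, a log2 difference of 4.85 ± 0.27 (adjusted p = 3.0e-12). In GENCODE M21 on GRCm38, Sprr1a lies on chromosome 3 from 92483952 to 92485895, Atf3 on chromosome 1 from 191170296 to 191218039 and Anxa10 on chromosome 8 from 62057042 to 62123150, all on the minus strand.

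The 250 bases before the RefSeq start of these 3 genes are shown because they are among the strongest risers and carry matches to the binding motifs of the AP-1 and CRE families, the families to which Jun and Atf3 belong. The 3 were chosen after their values were seen. Capitals mark the matches and the sequences run 5′ to 3′ on the gene's strand. They come from the RefSeq promoter table for GRCm38.p6, at chr3:92485882-92486131, chr8:62123194-62123443 and chr1:191183334-191183583, each on the minus strand, and the last few bases of the Sprr1a and Atf3 windows lie in exons of the GENCODE annotation. The Atf3 window lies wholly inside the GENCODE span given above, so this RefSeq start is downstream of the 5′ end of that span.
Sprr1a: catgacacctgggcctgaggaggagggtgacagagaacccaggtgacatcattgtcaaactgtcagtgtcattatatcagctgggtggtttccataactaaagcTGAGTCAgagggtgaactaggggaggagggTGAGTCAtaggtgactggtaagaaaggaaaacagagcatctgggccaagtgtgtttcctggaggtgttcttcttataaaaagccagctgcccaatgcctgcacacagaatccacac
Anxa10: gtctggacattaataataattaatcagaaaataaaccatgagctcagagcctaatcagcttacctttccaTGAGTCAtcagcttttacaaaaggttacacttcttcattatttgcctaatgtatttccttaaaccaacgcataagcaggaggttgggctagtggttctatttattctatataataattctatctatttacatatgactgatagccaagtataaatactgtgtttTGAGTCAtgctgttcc
Atf3: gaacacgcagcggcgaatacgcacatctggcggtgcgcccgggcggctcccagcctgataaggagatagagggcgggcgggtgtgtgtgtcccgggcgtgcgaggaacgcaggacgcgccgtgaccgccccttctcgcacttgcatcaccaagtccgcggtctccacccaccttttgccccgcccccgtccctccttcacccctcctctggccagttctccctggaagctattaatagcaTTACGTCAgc
In Sprr1a the letters TGAGTCA stand 146 to 140 and 116 to 110 bases before the start, in Anxa10 180 to 174 and 16 to 10 bases before it, and in Atf3 the letters TTACGTCA stand 10 to 3 bases before it. Searched on both strands, the AP-1 letters TGANTCA were found in 6.75 percent of all 32851 promoters in the table, in 4.96 percent of the promoters of genes tested and in 9.60 percent of the 302 promoters of 253 rising genes with an entry. Of the 36 promoters of rising genes that changed at least 4-fold, a set formed after the values were seen, 10 held a match, which is 27.8 percent and covers 9 of 33 genes: Sprr1a, Cd207, Lipn, Serpinb2, Clca3a2, Sh2d1b2, Anxa10, Procr and Apol9a. The CRE letters TNACGTCA were in 2.32 percent of the promoters of rising genes and 3.51 percent of those of genes tested, and the letters GAGGAAGT of the myeloid factor PU.1 in 3.97 percent and 2.33 percent, with 0 matches in the 15 promoters of rising genes from the microglia and phagocyte lists. At a share of 2.33 percent over genes tested, 0 of 15 does not set these promoters apart. The STAT letters TTCNNNGAA were in 10.9 percent of the promoters of rising genes and 6.12 percent of those of genes tested. The motif of the interferon-stimulated response element was in 5.63 percent and 2.60 percent, and in 13.9 percent of those of rising genes that changed at least 4-fold. Of the 15 promoters from the microglia and phagocyte lists, 2 held AP-1 letters, 2 STAT letters, 3 the interferon motif and 0 CRE letters. These matches are a description of letters, with no test, and the same window can hold more than 1 motif.

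Several of the genes with the largest folds were read from few or no counts on the contralateral side. Ankrd1, an ankyrin repeat protein of muscle that injured neurons also make, had 291 reads counted in the lesion libraries together and 3 in their contralateral counterparts, a ratio of 96.2 (95% interval 32.6 to 469, counting error only). Serpinb2, a protease inhibitor, had 128 counts against 1, a ratio of 127 with an interval of 22.4 to 5051. Sprr2j-ps, named as a pseudogene but listed as protein-coding in GENCODE M21, had 138 against 1. Its reads cannot be separated with certainty from its near-identical relatives. Among genes picked out after their values were seen, Cyp26a1, which breaks down retinoic acid, had 104 counts against 1. Cd207, known as langerin, had 68 against 0 and was at least 22.5-fold higher, taking 3 counts over the group as the floor. The lipase gene Lipn had 62 against 0 and was at least 20.5-fold higher. Ppef1, a calcium-binding phosphatase, rose from 0.616, 1.05 and 1.02 CPM to 11.6, 9.71 and 8.96 CPM. Fst, the activin inhibitor follistatin, rose from 0.513, 0.448 and 0.925 CPM to 5.08, 5.92 and 3.97 CPM. Each of these genes had its lesion libraries above all contralateral ones.

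Transcription factors of the injury response were called higher in 7 of 23 members tested, and none was lower; the list's median log2 difference was 0.35 against −0.01 over all genes. Beside Atf3, Sox11, which drives neurite growth programmes, read 17.3, 17.1 and 13.3 CPM against 6.01, 6.28 and 6.52 CPM (log2 difference 1.33 ± 0.13, adjusted p = 1.5e-07, edgeR quasi-likelihood test). Stat3, the signal transducer of the gp130 cytokine receptors, read 105 CPM in each lesion library against 79.8, 83.7 and 80.1 CPM (0.37 ± 0.06, adjusted p = 0.00023); its exons overlap those of Stat5a on the opposite strand, and how featureCounts treated strand is not given in the sources used here. Crem, a cyclic AMP-responsive factor, rose by 0.68 ± 0.10. Jun, an AP-1 subunit chosen here after its values were seen, rose from 55.9, 63.8 and 52.4 CPM to 80.8, 87.7 and 85.6 CPM, a log2 difference of 0.56 ± 0.09. Of 18 immediate early genes 0 were called, with a median of −0.00. Over all genes tested 1.65 percent were called, so 0 in a list of this size does not set it apart from other genes. Atf3, called higher, was counted among the injury factors and not in this list. At an unadjusted p under 0.05 there were 0 higher and 1 lower, and DESeq2 and limma-voom called none. The strongest of them, Junb, Nr4a2, Ier2 and Ier3, all had adjusted p-values above 0.05.

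Axon growth and cytoskeletal genes were higher in 13 of 30 members, with a median log2 difference of 0.27 and none lower. Tubb6, a beta tubulin, read 45.0, 49.9 and 42.5 CPM on the lesion side and 11.1, 10.2 and 11.6 CPM on the other, with the smallest adjusted p of all genes (log2 difference 2.06 ± 0.10, adjusted p = 1.9e-13). Stmn2, a microtubule regulator of growing axons, read 893, 961 and 924 CPM against 593, 673 and 639 CPM. Gap43, a growth cone protein, read 322, 339 and 305 CPM against 188, 238 and 239 CPM. All 3 sets were apart, but the abundant genes moved by smaller factors: log2 differences were 0.54 for both Stmn2 and Gap43, 0.45 for Tubb3, 0.37 for Tuba1a and 0.35 for Tubb2a. Tubb2b rose by 0.70 ± 0.08. Tubulin genes are similar in sequence and 50-base reads may be shared among them. Cd24a, a surface glycoprotein, read 160, 173 and 183 CPM against 70.4, 43.2 and 29.6 CPM; its contralateral libraries were spread over more than 2-fold, and its call was lost when the replicate number was a block (adjusted p = 0.057) and when only the groups compared were fitted (adjusted p = 0.22). Among the 10 genes called with the smallest adjusted p was Itga7, a laminin-binding integrin subunit, at 113, 128 and 93.6 CPM against 28.9, 27.3 and 26.7 CPM (log2 difference 2.01 ± 0.11). Its exons overlap Mettl7b on the opposite strand. Of 24 integrins 5 rose, the others named by the rule being Itgb1, the common beta subunit (0.43 ± 0.06), and the leukocyte subunits Itgam and Itgb2. Uck2, an enzyme of pyrimidine salvage, rose from 31.3, 34.4 and 28.6 CPM to 63.0, 67.8 and 59.3 CPM.

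**Figure D2:**
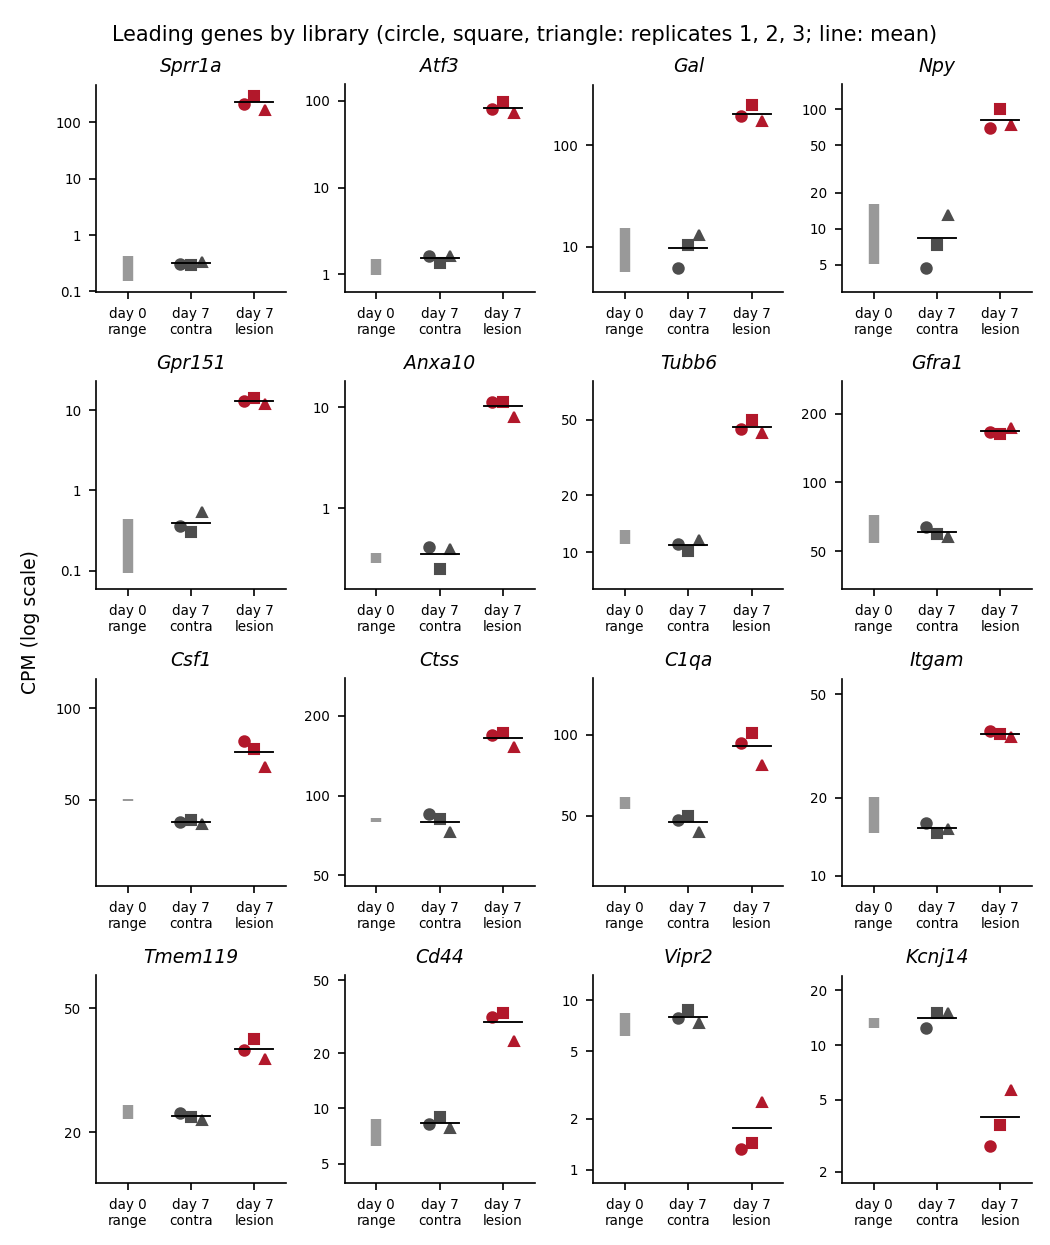
Each panel gives 1 gene in CPM on a log scale, with the range of the 3 day 0 libraries as a grey bar and each day 7 library as a point (circle, square and triangle for replicates 1, 2 and 3; line, mean). Sides do not overlap in any of these 16 genes, and lesion values for Sprr1a lie between 168 and 295 CPM against at most 0.341 CPM on the contralateral side.

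Of 25 neuropeptides and granins 3 were higher, and the list's median was 0.00. Gal, the neuropeptide galanin, read 193, 247 and 173 CPM against 6.16, 10.3 and 12.9 CPM, a log2 difference of 4.37 ± 0.35 (adjusted p = 2.2e-06). Npy, neuropeptide Y, read 69.8, 101 and 73.9 CPM against 4.72, 7.27 and 13.2 CPM, and Vip, vasoactive intestinal peptide, 16.3, 14.7 and 18.7 CPM against 9.91, 7.72 and 7.15 CPM. The contralateral Npy values were spread over more than 2-fold, and its call was lost when only the 6 libraries were fitted (adjusted p = 0.064), while Vip was at 0.050 without contralateral replicate 3. The calcitonin gene-related peptides had differences of opposite sign. Calcb, the beta form, read 2.54, 1.89 and 5.22 CPM against 7.03, 8.32 and 8.27 CPM and was not called in the main test (adjusted p = 0.20). It was called lower with the replicate number as a block (adjusted p = 0.012), by DESeq2 (0.037) and without lesion replicate 3 (log2 difference −1.84, adjusted p = 0.033). Calca, the alpha form, chosen after its values were seen, read 65.5, 56.5 and 73.8 CPM against 39.7, 42.5 and 37.2 CPM, with an adjusted p of 0.29 that became 0.012 with the block.

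Among 30 receptors for peptides and lipids 3 rose and 1 fell. Gpr151, an orphan receptor, read 12.9, 14.2 and 11.9 CPM against 0.359, 0.299 and 0.535 CPM (log2 difference 5.0 ± 0.35, adjusted p = 1.7e-08). Avpr1a, a vasopressin receptor, read 8.77, 8.26 and 10.9 CPM against 2.26, 2.14 and 3.16 CPM. F2rl1, a protease-activated receptor, rose from 0.308, 0.399 and 0.389 CPM to 1.44, 1.49 and 1.55 CPM. The receptor that fell was Vipr2, which binds vasoactive intestinal peptide, at 1.33, 1.44 and 2.5 CPM against 7.80, 8.72 and 7.30 CPM. Its log2 difference of −2.14 ± 0.26 (adjusted p = 2.4e-05) was the largest fall of all called genes, so that the peptide Vip and this receptor moved in opposite directions. Prokr2, a prokineticin receptor, and Adgrd1, an adhesion receptor, were among the largest risers outside the list, with log2 differences of 2.13 ± 0.26 and 2.45 ± 0.21.

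Receptors for neurotrophic factors and cytokines were higher in 7 of 31 members, with a median of 0.20. Gfra1, the receptor subunit that binds GDNF, read 166, 163 and 173 CPM against 63.9, 59.5 and 57.5 CPM (log2 difference 1.47 ± 0.11, adjusted p = 8.6e-08). Ret, the kinase that signals with it, read 205, 205 and 198 CPM against 128, 137 and 134 CPM (0.61 ± 0.08, adjusted p = 2.4e-05). Both subunits of the GDNF receptor were thus higher in every lesion library, while Gdnf itself, chosen after its values were seen, was at 0.388 to 0.462 CPM on the lesion side and 0.389 to 0.598 CPM on the other, and no change was detectable. Gfra1 is overlapped by a predicted gene on the opposite strand. Il4ra, the interleukin 4 receptor, rose from 10.5, 10.2 and 10.6 CPM to 20.8, 19.1 and 20.4 CPM, and Acvr1, a BMP receptor, by 0.50 ± 0.09. Of 27 growth factor and cytokine ligands 2 rose. Csf1, the growth factor on which microglia depend, read 78.3, 73.4 and 64.0 CPM against 42.2, 42.9 and 41.5 CPM (0.77 ± 0.08, adjusted p = 4.5e-07). Socs3, which dampens gp130 signalling, was the 1 of 22 feedback regulators that passed, at 4.62, 3.83 and 5.17 CPM against 1.64, 2.09 and 1.31 CPM.

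Genes of motor neuron identity and transmission were lower in 3 of 24 members and higher in none, with a list median of −0.21. In 9 members the lesion side lay wholly below the other and in 3 wholly above, against 5.26 and 7.26 percent of all genes tested. Chodl, a marker of fast motor neurons, read 7.21, 6.42 and 15.9 CPM against 20.5, 31.8 and 25.7 CPM (log2 difference −1.38 ± 0.30, adjusted p = 0.026). Mmp9, a metalloproteinase of fast motor neurons, fell by 0.66 on the log2 scale, and Nefl, the light neurofilament subunit, by 0.22; the exons of Nefl overlap Nefm on the opposite strand. The calls of Chodl, Mmp9 and Nefl were each lost in 5 or more of the 13 alternative fits. Where lost, adjusted p-values were 0.080 to 0.62 for Chodl, 0.052 to 0.17 for Mmp9 and 0.055 to 0.34 for Nefl. The marker genes of cholinergic transmission did not pass in the main test. Chat, which makes acetylcholine, read 13.9, 13.9 and 25.5 CPM against 26.3, 30.2 and 36.3 CPM (−0.79 ± 0.22, adjusted p = 0.13). Slc5a7, the choline transporter, read 32.0, 31.9 and 66.1 CPM against 77.5, 101 and 117 CPM (−1.17 ± 0.30, adjusted p = 0.076). Slc18a3, the vesicular acetylcholine transporter, read 32.2, 31.5 and 48.3 CPM against 50.9, 58.4 and 60.1 CPM (−0.59 ± 0.19, adjusted p = 0.26). In each of them the sides did not overlap and the third lesion library was the highest of the 3.

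With the replicate number as a block, Chat (adjusted p = 0.00024), Slc5a7 (0.019) and Slc18a3 (0.026) were called lower, and the list held 6 lower genes and 1 higher. With all libraries and no block, DESeq2 called 6 of the list lower and 1 higher, and limma-voom 4 lower and 1 higher. Without lesion replicate 3, they were also called, with log2 differences of −1.16, −1.63 and −0.83, and the list held 4 lower genes. That library is the one with choroid plexus RNA: Ttr, the transthyretin of choroid plexus, read 50.0, 37.0 and 4353 CPM against 21.7, 19.0 and 45.9 CPM, and Folr1 0.519, 0.299 and 31.2 CPM against 0.359, 0.199 and 0.389 CPM. None of the 14 choroid plexus genes was called by edgeR, although 13 were higher at an unadjusted p under 0.05 and DESeq2 called 5 higher. Their median log2 difference of 3.08 became 0.14 without that library. It was the lowest of the 3 lesion libraries in 180 of the 347 rising genes and the highest in 13 of the 21 falling ones; replicates 1 and 2 were lowest in 93 and 74 and highest in 6 and 2. The part of that RNA in these values was not tested; without the library, 310 genes were higher and 25 lower. Tbx20, a T-box factor of cranial motor neurons, read 4.10, 2.89 and 2.80 CPM against 2.98, 2.94 and 3.07 CPM, with overlapping sides. Prph, the neurofilament peripherin, read 131, 152 and 192 CPM against 85.6, 109 and 109 CPM, above the other side in every library with an adjusted p of 0.14.

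**Figure D3:**
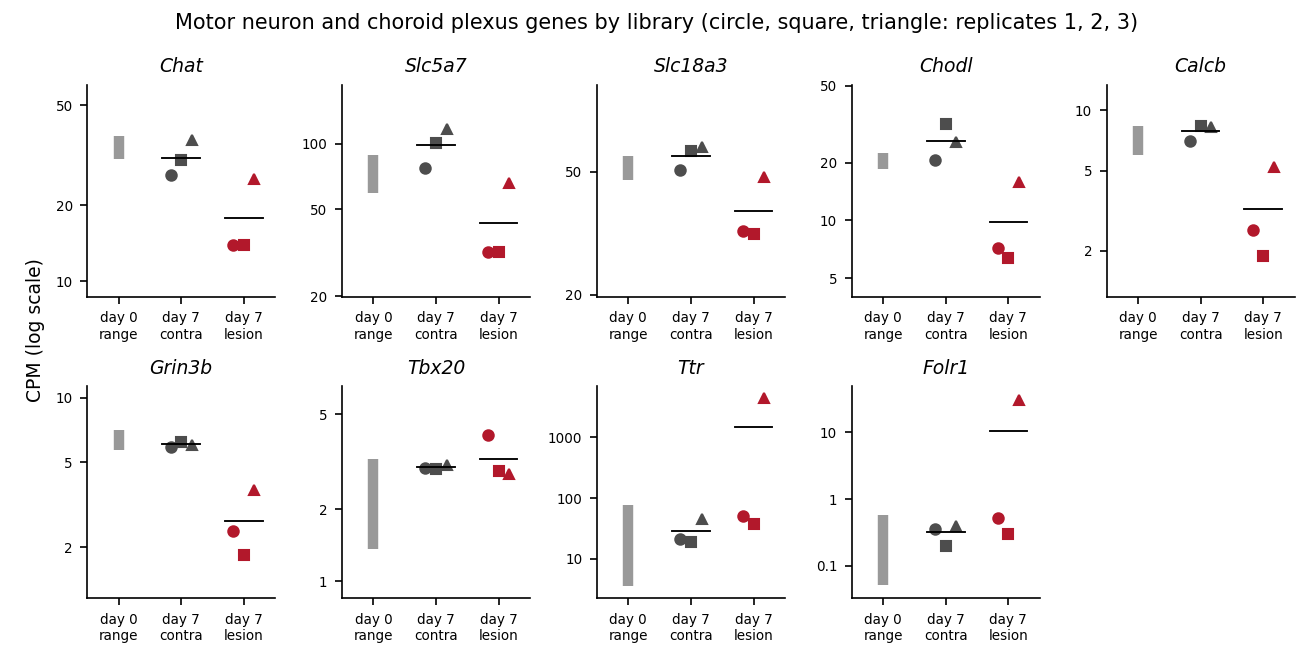
Levels in CPM on a log scale of motor neuron genes (Chat to Tbx20) and of the choroid plexus genes Ttr and Folr1, by library, with the day 0 range as a grey bar (circle, square, triangle: replicates 1, 2 and 3). The triangle of the lesion side, replicate 3, is nearest to the contralateral side in Chat, Slc5a7 and Slc18a3 and stands at 4353 CPM in Ttr.

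Channels and transmitter receptors changed in few members. Of 55 potassium, sodium, calcium and HCN channel genes 2 fell and 2 rose, with a median of −0.06. Kcnj14, an inward rectifier potassium channel of motor neurons, read 2.77, 3.63 and 5.65 CPM against 12.4, 14.9 and 15.1 CPM (log2 difference −1.79 ± 0.19, adjusted p = 4.3e-06). Kcnk3, a leak potassium channel, fell by 0.27 on the log2 scale, a call lost with the block (adjusted p = 0.051). Scn9a, a sodium channel of peripheral neurons, rose from 11, 13.6 and 14.1 CPM to 18.4, 17 and 21.8 CPM. Cacna2d1, the auxiliary calcium channel subunit that binds gabapentin, rose from 46.9, 61.9 and 69.3 CPM to 82.9, 90.7 and 82.2 CPM. Of 54 transmitter receptors 2 fell, none rose and 10 had the lesion side wholly lower, against 5.26 percent of all genes tested. Grin3b, an NMDA receptor subunit of motor neurons, read 2.37, 1.84 and 3.71 CPM against 5.90, 6.23 and 6.03 CPM (−1.18 ± 0.19), and overlaps Tmem259 on the opposite strand. Htr3a, a serotonin-gated channel, read 2.89, 2.34 and 3.58 CPM against 4.98, 7.57 and 6.33 CPM (−1.09 ± 0.18). Other falls outside the lists were Prss12, the serine protease neurotrypsin, from 10.1, 10.1 and 10.6 CPM to 4.04, 3.73 and 4.57 CPM, and Vdr, the vitamin D receptor, from 3.9, 4.04 and 3.75 CPM to 1.79, 1.34 and 1.72 CPM. The secreted factors Fgf1 and Dkk3 fell by 0.42 and 0.48 on the log2 scale, and Trhr, the receptor for thyrotropin-releasing hormone, by 0.61. In Trhr the lesion libraries (6.18, 5.87 and 7.67 CPM) lay within the day 0 range of 5.31 to 7.68 CPM, and the contralateral side, at 9.29, 9.12 and 11.8 CPM, was called higher than day 0 (log2 difference 0.65, adjusted p = 0.0035). The call of Trhr was lost with limma-voom (adjusted p = 0.084) and without lesion replicate 1 or 2 or contralateral replicate 3 (0.16 to 0.31). The contralateral level of Nefl was likewise called higher than day 0 (log2 difference 0.26, adjusted p = 0.0020). Pan-neuronal genes gave 0 calls in 18, by edgeR, DESeq2 and limma-voom alike, with none at an unadjusted p under 0.05. As edgeR called 1.65 percent of all genes tested, 0 of 18 does not set this list apart.

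Genes of cell death and of the p53 response were higher in 4 of 32 members. Gadd45a, a growth arrest gene, read 21.2, 23.6 and 21 CPM against 10.6, 9.17 and 7.74 CPM (log2 difference 1.26 ± 0.12, adjusted p = 1.3e-07). Pmaip1, the BH3-only protein Noxa, read 7.91, 9.86 and 7.24 CPM against 2.82, 2.19 and 2.38 CPM (1.75 ± 0.20, adjusted p = 1.2e-06). Gadd45g rose by 0.44 ± 0.11. The integrated stress and unfolded protein response had 0 calls in 23 and arginine and polyamine metabolism 0 in 12 by edgeR, each with 1 member higher at an unadjusted p under 0.05 and none called by DESeq2 or limma-voom. With 1.65 percent of all genes tested called by edgeR, these zeros do not set the lists apart from other genes. Of 14 heat shock proteins Hspb1, a small chaperone of injured motor neurons, passed, at 9.06, 12.4 and 11.5 CPM against 5.49, 5.73 and 5.30 CPM. Of 22 genes of cholesterol and lipid synthesis 2 enzymes of the mevalonate pathway rose, Mvd by 0.44 ± 0.09 and Mvk by 0.37 ± 0.08.

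Of 20 markers of homeostatic microglia 12 were higher, with a median log2 difference of 0.54 and none lower. Itgam, the complement receptor subunit CD11b, read 36.0, 35 and 34.2 CPM against 16, 14.5 and 15.2 CPM (1.20 ± 0.12, adjusted p = 4.6e-07). Tmem119, a surface protein of resident microglia, read 36.8, 39.7 and 34.4 CPM against 23.1, 22.4 and 21.9 CPM (0.72 ± 0.09, adjusted p = 1.3e-05). Cx3cr1 read 33.3, 30.4 and 27.5 CPM against 22.2, 19.9 and 18.2 CPM; with 1 copy replaced by GFP in all mice, its level is that of the remaining copy or of transcripts that still carry its sequence. Its adjusted p of 0.043 became 0.00016 with the block and lay at 0.054 to 0.26 without lesion replicate 1 or 2 or any 1 contralateral library. Siglech, a sialic acid-binding lectin, rose by 0.61 ± 0.10 and Olfml3, a secreted matrix protein, by 0.77 ± 0.09. Fcrls, another microglial marker, read 25.5, 18.7 and 12.9 CPM against 13.4, 11.9 and 8.61 CPM, with overlapping sides and an adjusted p of 0.14 that became 0.0047 with the block.

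Phagocyte genes were higher in 9 of 27 members (median 0.46, all 27 with a positive log2 difference) and complement genes in 5 of 22 (median 0.36). Trem2, a lipid-sensing receptor, read 21.4, 19.9 and 14.8 CPM against 11.9, 10.8 and 10.5 CPM, and its adaptor Tyrobp 27.1, 32.4 and 26.8 CPM against 19.4, 16.6 and 16.2 CPM. Cd52, a leukocyte surface peptide, rose from 1.54, 1.99 and 1.17 CPM to 5.14, 6.22 and 4.48 CPM, the largest of the 4 members named by the rule; its exons overlap Crybg2 on the opposite strand. The 3 chains of C1q, the recognition molecule of the classical complement pathway, all rose. C1qa read 93.5, 101 and 77.0 CPM against 48.3, 49.7 and 43.6 CPM (0.94 ± 0.08, adjusted p = 1.2e-08), C1qb rose by 0.91 ± 0.10 and C1qc by 0.84 ± 0.09. Among receptors for immunoglobulin, Toll ligands and nucleotides 7 of 22 rose, with a median of 0.60. Ly86, a partner of a Toll-like receptor homologue, read 28.2, 33.7 and 26.1 CPM against 11.9, 10.4 and 12.0 CPM (1.36 ± 0.12). Fcgr4, an activating Fc receptor, read 1.27, 1.69 and 1.47 CPM against 0.154, 0.0498 and 0.195 CPM, and Fcer1g, their shared signalling chain, rose by 0.90 ± 0.13. Fc receptor genes share sequence, which may divide reads among them.

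Lysosomal genes were higher in 8 of 28 members, but their median was 0.10 and the sizes were uneven. Ctss, the cathepsin made mainly by microglia, read 169, 173 and 152 CPM against 85.0, 81.3 and 72.8 CPM (log2 difference 1.04 ± 0.08, adjusted p = 9.6e-10). Grn, progranulin, read 102, 99.8 and 81.1 CPM against 59.8, 64.1 and 62.8 CPM, and overlaps Fam171a2 on the opposite strand. The cathepsins found in most cells rose less, Ctsd by 0.36 ± 0.06 and Ctsb by 0.20 ± 0.05. No member of the cell cycle list passed. With edgeR 0 of 40 were called, against 1.65 percent of all genes tested, and DESeq2 and limma-voom called none. At an unadjusted p under 0.05, 5 were higher and 1 lower, where 1630 of all 22294 genes passed in either direction. The median was 0.09, and 4 members had the sides apart upwards, against 7.26 percent of all genes. Mcm6, a replicative helicase subunit, read 11.5, 10.8 and 11.6 CPM against 8.67, 9.27 and 9.15 CPM (adjusted p = 0.098). Mki67, the proliferation marker, chosen after its values were seen, read 0.808, 1.79 and 1.47 CPM against 1.18, 1.30 and 1.17 CPM, with overlapping sides. At this depth and library number, no change in division genes was detectable. With so small a share of all genes called, 0 of 40 does not show that division was unchanged.

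**Figure D4:**
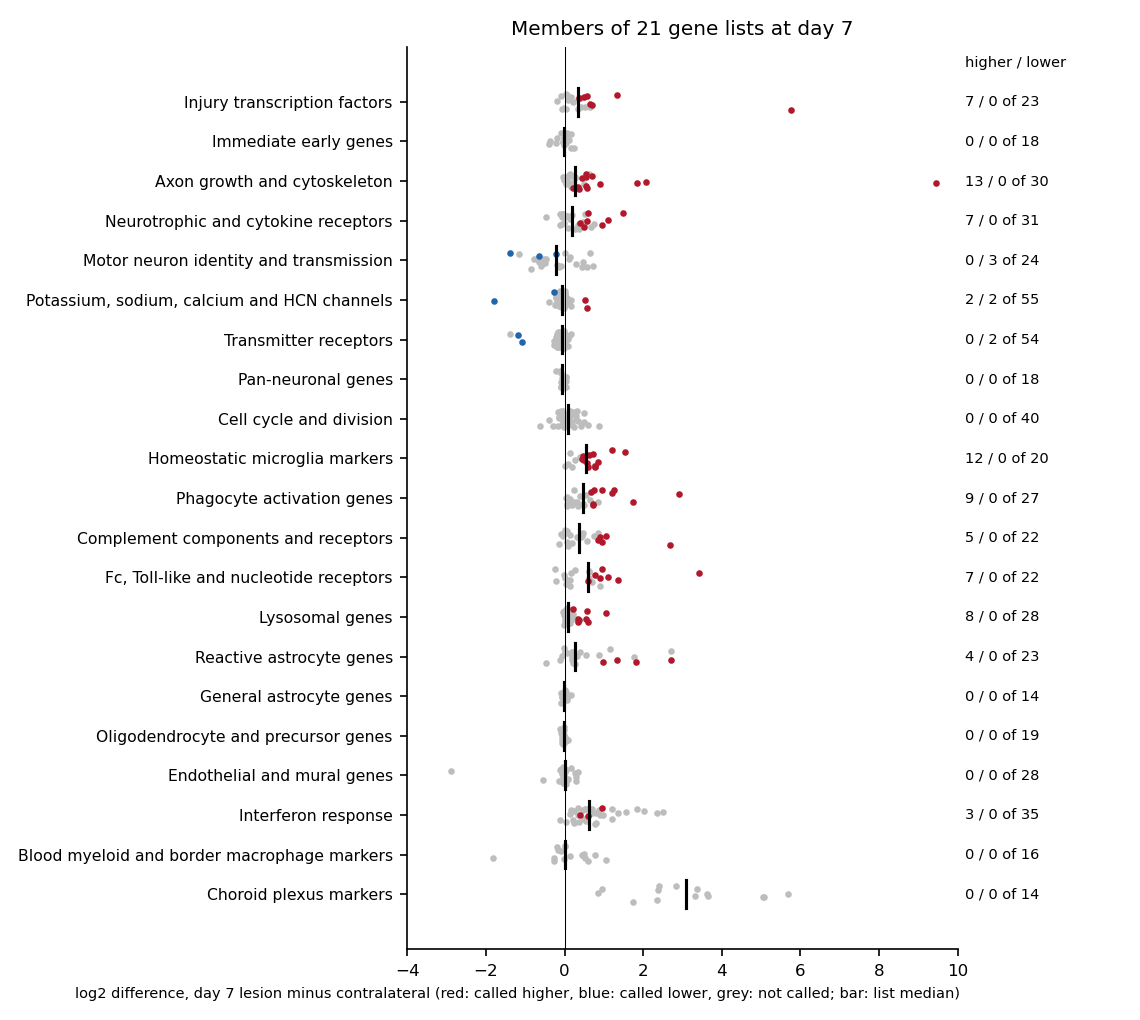
Members of 21 gene lists by their log2 difference at day 7 (x axis), with red for genes called higher, blue for genes called lower, grey for the rest and a bar at the list median; the counts at the right are those called higher and lower. Microglial, complement and Fc receptor lists lie to the right, with 12 of 20, 5 of 22 and 7 of 22 members called, and choroid plexus genes lie far to the right with none called.

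Genes of reactive astrocytes were higher in 4 of 23 members, with a median of 0.27. Cd44, the hyaluronan receptor, read 31.6, 33.1 and 23.4 CPM against 8.16, 9.02 and 7.84 CPM (log2 difference 1.81 ± 0.15, adjusted p = 7.6e-08). Timp1, a metalloproteinase inhibitor, read 4.33, 5.62 and 5.52 CPM against 0.667, 0.747 and 0.925 CPM (2.72 ± 0.26, adjusted p = 1.0e-07). Serpina3n, a secreted protease inhibitor with close paralogs, read 118, 127 and 160 CPM against 46.7, 51.6 and 62.6 CPM. These 3 genes had sides apart, whereas Gfap, the astrocyte intermediate filament, overlapped and had an adjusted p of 0.95. General astrocyte genes (0 of 14), oligodendrocyte genes (0 of 19) and endothelial and mural genes (0 of 28) had no member called by edgeR, DESeq2 or limma-voom and none at an unadjusted p under 0.05. Over all genes tested edgeR called 1.65 percent, so 0 calls in lists of these sizes do not set them apart from other genes. Among annexins and S100 proteins 3 of 19 rose: Anxa2, a membrane-binding annexin, from 56.6, 67.1 and 60.3 CPM to 137, 169 and 133 CPM, its partner S100a10 by 0.97 ± 0.16, and S100a11 by 1.65 ± 0.19. Of 39 matrix genes, proteases and inhibitors 5 rose and 1, Mmp9, fell. Adam8, a membrane protease, read 22, 27.6 and 20.9 CPM against 2.10, 2.94 and 3.26 CPM (3.08 ± 0.24, adjusted p = 1.3e-07). Mmp16, a membrane metalloproteinase, rose by 1.02 ± 0.14 and Adamts1, which cleaves proteoglycans, by 0.60 ± 0.10.

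Of 29 chemokines and receptors 4 rose, among them Ccl2, Ccl7 and Ccl8, which were low in level. In 13 members the lesion side lay wholly above the other and in 1 wholly below, against 7.26 and 5.26 percent of all genes tested. Ccl2, which draws monocytes, read 2.25, 1.69 and 1.16 CPM against 0.0513, 0.149 and 0.0487 CPM (log2 difference 4.25 ± 0.63, adjusted p = 0.00013). Ccl7 read 2.19, 2.44 and 3.10 CPM against 0.359, 0.448 and 0.195 CPM. Ccl9 rose by 1.03 ± 0.22, and Ccl8 had 25 counts against 2, a ratio of 12.4 (95% interval 3.09 to 108). With the block 6 were called, Ccl12 among them. Il1f9, an interleukin 1 family cytokine that stands outside the lists, rose from 0.411, 0.249 and 0.0487 CPM to 1.62, 2.64 and 2.5 CPM. Of 17 other inflammatory cytokines and inflammasome genes none was called by edgeR, DESeq2 or limma-voom, and 3 were higher at an unadjusted p under 0.05. With 1.65 percent of all genes tested called by edgeR, 0 of 17 does not set this list apart. Tnf, tumour necrosis factor, was read at 0.173, 0.149 and 0 CPM on the lesion side and at 0 in all contralateral libraries.

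Interferon response genes were nearly all positive, with few single calls. Of 35 members 3 were called higher in the main test, 7 with the replicate number as a block, 7 by DESeq2 and 4 by limma-voom. Without lesion replicate 3, 2 were. The median log2 difference was 0.62, 34 members were positive and in 29 the lesion libraries all lay above the contralateral ones, against 7.26 percent of all genes. Stat2, a signal transducer of interferon receptors, read 44.0, 38.6 and 43.7 CPM against 29.3, 24.4 and 29.4 CPM (0.61 ± 0.12, adjusted p = 0.0051). Irf8, a myeloid transcription factor, rose by 0.95 ± 0.19 and Ifi27 by 0.39 ± 0.08. Ifi204, an interferon-inducible DNA sensor outside the list, read 4.91, 3.73 and 2.33 CPM against 0.719, 0.648 and 0.584 CPM (2.47 ± 0.59, adjusted p = 0.046). Its call was lost with limma-voom (adjusted p = 0.084) and when genes with any count were tested (0.079). It was also lost without lesion replicate 1 or 2 or any 1 contralateral library (0.13 to 0.22). Oasl1, chosen after its values were seen, read 4.68, 2.84 and 1.85 CPM against 0.975, 0.399 and 0.438 CPM and had an adjusted p of 0.18 that became 5.2e-06 with the block. In antigen presentation 1 of 22 members rose, the class I gene H2-D1, at 124, 118 and 106 CPM against 92.7, 92.8 and 88.7 CPM. In 12 members the lesion side was wholly higher, against 7.26 percent of all genes tested. Class I genes are alike in sequence, and H2-D1 missed the threshold without lesion replicate 1 or 2 or contralateral replicate 3 (adjusted p 0.053 to 0.11).

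Signs of blood-borne cells were near the limit of detection. Of 17 lymphocyte genes 1, the T cell receptor constant region Trbc2, rose, from 0.154, 0.349 and 0.292 CPM to 1.04, 1.24 and 0.690 CPM (log2 difference 1.86 ± 0.40, adjusted p = 0.0068). The T cell markers Cd3e, Cd3g, Cd4 and Cd8a stayed under 0.4 CPM on both sides, with no call. None of 16 markers of blood myeloid cells and border macrophages was called by edgeR, DESeq2 or limma-voom, with 0 higher and 1 lower at an unadjusted p under 0.05. Markers of red cells (0 of 5), ependyma (0 of 9), meninges (0 of 10) and cerebellum (0 of 10) gave no calls either, with 1 ependymal gene higher at an unadjusted p under 0.05. The share called by edgeR over all genes tested was 1.65 percent. Lists of these sizes with 0 calls, the 16 blood myeloid and border macrophage markers among them, are thus not set apart from other genes. The summed meningeal markers read 411, 475 and 614 CPM on the lesion side and 395 to 524 CPM on the other. All 10 cerebellum markers had negative log2 differences (median −0.36), and their sums were 224 to 262 CPM on the lesion side and 259 to 342 CPM on the other. Contralateral replicate 1 read 32.7 CPM in Cbln3, against 10.5 and 10.7 CPM in the other contralateral libraries. In Gabra6 it read 13.7 CPM against 3.59 and 4.04 CPM. That library was also the highest in the ependymal genes Ccdc153 and Tmem212 and the blood myeloid gene Ly6c2, but not in Pcp2 or Foxj1. Its part in the cerebellum median was not tested.

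The same 368 genes were read at the later time points. The day 7 contrast used none of those libraries, although they entered the count filter and the estimate of the spread. Of the 347 that rose at day 7, 345 were positive at day 14 and 283 were called higher there, 81.6 percent against 2.58 percent of all genes. At day 30, 332 were positive and 133 were called, 38.3 percent against 1.04 percent of all genes, and the median log2 difference went from 0.79 at day 7 to 0.78 at day 14 and 0.50 at day 30. Of the 21 that fell, 16 were called lower at day 14 (1.31 percent of all genes were) and 14 at day 30 (0.121 percent of all genes). No gene was called in the opposite direction on a later day. The comparisons of lesion and contralateral side on those days called 3.88 percent of all genes at day 14 and 1.16 percent at day 30. In the table, the side letters of the day 30 columns are opposite to the sides given in the sample labels; the samples' own descriptions tie columns to samples, and the direction of day 30 values rests on them.

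**Figure D5:**
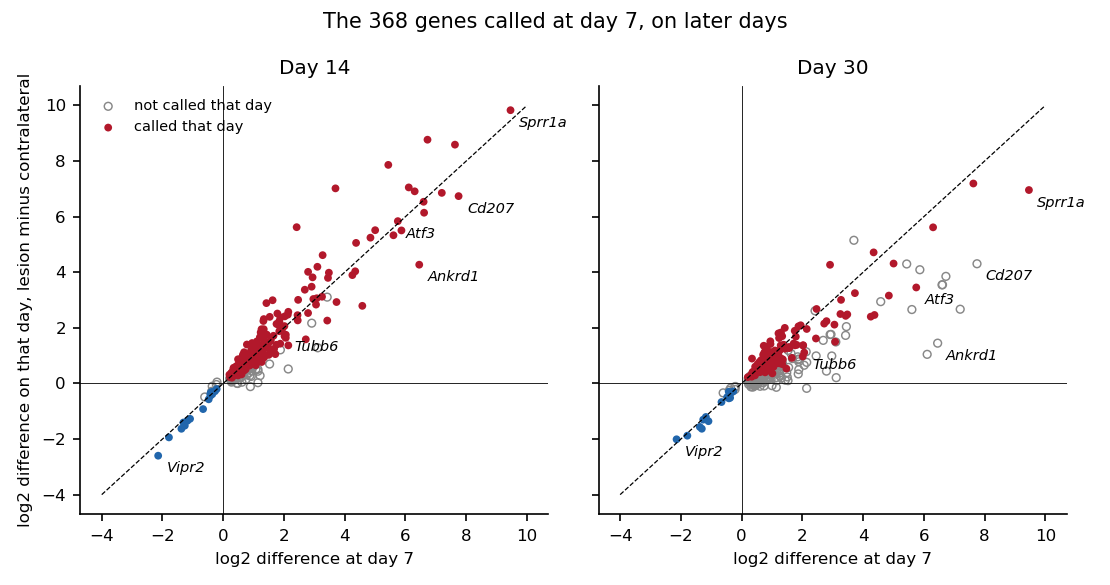
Each point is 1 of the 368 genes called at day 7, with its log2 difference at day 7 on the x axis and at day 14 (left) or day 30 (right) on the y axis; filled points were called on that day and the dashed line marks equal values. At day 14 the points follow the line, with 283 of 347 rises called, and at day 30 most rises lie below it, while the falls stay near it.

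A test of the difference between days found 0 genes in which the day 14 effect differed from the day 7 effect (edgeR quasi-likelihood test; 1320 at an unadjusted p under 0.05; DESeq2 called 1 and limma-voom 0). Between day 30 and day 7 it found 6, 0.0269 percent of genes tested, all with a smaller effect at day 30: Tubb6, Uck2, Itga7, Gfra1, Gadd45a and Fads3. Tubb6 had log2 differences of 2.06 at day 7, 1.75 at day 14 and 1.11 at day 30, where the lesion libraries read 21.1, 23.5 and 22.9 CPM against 10.5, 10.5 and 10.2 CPM. Gfra1 fell back from 1.47 to 0.53, with 80.9, 99.2 and 111 CPM against 74.3, 61.7 and 64.6 CPM at day 30, and Gadd45a from 1.26 to 0.27, with 8.15, 10.8 and 12.4 CPM against 8.67, 8.72 and 8.41 CPM. The lesion values of Gadd45a thus overlapped the other side by day 30. Ankrd1 went from 6.45 ± 0.54 at day 7 to 4.27 at day 14 and 1.45 at day 30; the difference between day 30 and day 7, −5.0 ± 0.97, had an adjusted p of 0.055. Sprr1a (9.46, 9.83 and 6.96), Atf3 (5.75, 5.84 and 3.45) and Gal (4.37, 5.06 and 2.46) were called on all 3 days and had smaller values at day 30, but the tests of that change gave adjusted p-values of 1.0, 0.35 and 0.56. Csf1 had values of 0.77, 0.66 and 0.31, the last not called (adjusted p = 0.058).

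C1qa had log2 differences of 0.94, 1.15 and 0.91 at days 7, 14 and 30, and Ctss of 1.04, 1.24 and 1.09, each called on every day. Itgam had 1.20, 0.83 and 0.73, Tmem119 0.72, 0.72 and 0.45, and Cx3cr1 0.59, 0.75 and 0.46, the last not called at day 30 (adjusted p = 0.23). Vipr2 was at −2.14, −2.60 and −2.01, Kcnj14 at −1.79, −1.94 and −1.88 and Chodl at −1.38, −1.63 and −1.56, each called on every day. Trhr was at −0.61, −0.49 and −0.34, called at day 7 alone. In each of these 9 genes the test of the difference between day 30 and day 7 gave an adjusted p of 1.0. Chat, not called at day 7 in the main test, was called at day 14 (log2 difference −1.54, adjusted p = 0.00062) and not at day 30 (−0.83, adjusted p = 0.11).

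The contralateral pons served as the control, and its distance from unoperated tissue was measured in the same model. Between day 7 contralateral and day 0 libraries 1525 genes were higher (6.84 percent of genes tested) and 816 lower (3.66 percent), 10.5 percent in all, of which 39 and 36 reached a log2 difference of 1.7. The 2 groups also differed in age and in sequencing depth, which was 35874913 to 41448945 counts at day 0, so that time, age, surgery and sequencing cannot be told apart here. Of the 368 genes of the lesion comparison 23 were among them, and 5 were higher in both (Cacna2d1, Chl1, Zdhhc2, Cbfb and Nrep, 4 of them named here only for this overlap); the 2 comparisons share the contralateral libraries. For the leading genes the contralateral side was near day 0: the log2 difference between contralateral and day 0 was 0.17 in Sprr1a, 0.35 in Atf3, −0.09 in Gal, −0.23 in C1qa and 0.10 in Vipr2, none of them called.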

How the data were processed

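Ventral pons from axotomised and unoperated mice was sequenced with a stranded mRNA kit from 300 ng of total RNA in 50-base single reads, per the labels' protocols and the series' design text. The authors deposited raw counts per gene; the submitters' processing notes name CASAVA 1.8.2, Subread, featureCounts and GRCm38.p4, and the design text names Gencode M7, with the strand setting not given in the sources used here. Samples were grouped by their titles, in 7 groups of 3.

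From these counts, genes with a summed count of at least 30 were tested in 1 model over all 21 libraries, with 1 coefficient per group, by the robust quasi-likelihood test of edgeR 4.0.16 (TMM factors, R 4.3.3), and p-values were adjusted by Benjamini-Hochberg over 22294 genes. A gene is called at an adjusted p under 0.05. CPM values are counts per 1000000 of the library's total after TMM scaling. In 27 rows the deposited symbol is a date, and none is named. Intervals of count ratios are exact and cover counting error only. On simulated counts for the same comparison, genes with a mean of at least 1 CPM were set higher or lower by 1 log2 unit, 50 each way. Of these, 96 percent and 94 percent were called, and 4.93 percent of all simulated calls were false. Genes under 1 CPM were not set to change, so their recovery was not measured. The simulated libraries had no link by replicate number and no choroid plexus RNA in a single library, unlike the data. Replicates within a group differed by more than sampling noise.

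Deviations of day 7 libraries with the same replicate number correlated over the 15480 genes with a mean of at least 1 CPM (0.27, 0.24 and 0.17, against −0.20 to −0.01 for other numbers), so the fit with the number as a block is given where it changes a call; over all genes tested the same correlations were 0.090, 0.095 and 0.050. Alternatives were DESeq2 1.42.0, its size factors, limma-voom (limma 3.58.1), other filters, a fit of the compared groups alone and leaving out each library. Genes named were, by rule, called genes with the largest change (25 higher, 15 lower, at least 1 CPM and sides apart), the 10 with the smallest adjusted p, the 10 most abundant, the 4 members of each list with the smallest adjusted p, and genes differing between days; others are said to be chosen after their values were seen, or are cell type markers. Some genes are not reported here. Predicted symbols were called in 17 genes and are not named. Members and the 42 gene lists were chosen with earlier results of these data known. Positions come from GENCODE M21, in which 80 called genes overlap an exon of the opposite strand.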

Additional observations from a re-analysis of the deposited data

Results flagged for a closer look

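The difference between the lesion effect at day 30 and at day 7 passed the test itself in 6 genes (edgeR quasi-likelihood test of the interaction, Benjamini-Hochberg adjustment), with a lower value at day 30 in each. It was −0.95 in Tubb6 (adjusted p = 0.0046), −0.65 in Uck2 (0.0046), −1.04 in Itga7 (0.014), −0.94 in Gfra1 (0.040), −0.99 in Gadd45a (0.034) and −0.62 in Fads3, a fatty acid desaturase family gene (0.014). All 6 were called higher at day 7 and at day 14. At day 30, Tubb6, Uck2, Itga7 and Gfra1 were still called higher, and Gadd45a (0.27 ± 0.13, adjusted p = 0.64) and Fads3 (0.20 ± 0.07, adjusted p = 0.37) were not.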

How the results depend on the processing

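Of the 116 genes named by the rule and called at day 7, 89 kept their direction and call in all 13 alternatives, 27 lost the call in at least 1, and 0 reversed. Calls lost in 5 or more alternatives were those of Ccl8, Cd33, Chodl, Ctsb, Cx3cr1, Gadd45g, Ifi204, Kcnk3, Mmp9, Nefl and Tubb5; Chodl had adjusted p-values of 0.080 to 0.62 where it was lost. Of 82 genes named by the rule and not called, 11 were called in some alternative. The replicate block gave 365 higher and 23 lower genes; it kept 340 of the 368 calls, lost 28, gained 48, and among genes named by the rule changed the calls of Cd24a, Kcnk3, Tubb5, Calcb and Hspb8; of the other genes in the text, it also gave calls to Chat, Slc5a7, Slc18a3, Fcrls, Calca, Oasl1 and Ccl12. Leaving out 1 library gave 258 to 310 higher and 10 to 25 lower genes, the lower count being 10 without lesion replicate 2 and 12 without contralateral replicate 2. A minimum log2 difference of 1.7 left 66 higher and 2 lower genes. For the day 14 difference, DESeq2 and the replicate block each called 1 gene higher, and testing genes with any count 1 higher and 1 lower; leaving out 1 library gave 0 to 1 higher and 0 lower. For the day 30 difference, DESeq2 called 1 higher and 28 lower, genes with any count 4 and 28, the compared groups alone 2 and 18, a minimum of 1.7 none, and leaving out 1 library 0 to 1 higher and 2 to 7 lower. For the contralateral side against day 0, the compared groups alone gave 417 lower genes, a minimum of 1.7 left 39 higher and 36 lower, and leaving out 1 library gave 1142 to 1525 higher and 425 to 810 lower. Of the day 7 falls, DESeq2 called 25 also lower at day 14. Leaving out 1 library of day 7 or of the later day, 225 to 278 rises and 9 to 20 falls were also called at day 14, and 92 to 127 and 9 to 15 at day 30. The cause of these changes was not tested. With 3 libraries a side, genes near 1 CPM rest on few counts.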

Other observations

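Some of the largest rises belonged to genes outside the gene lists. Slfn9, a Schlafen family gene, read 3.98, 2.79 and 2.93 CPM on the lesion side and 0.308, 0.249 and 0.584 CPM on the other (log2 difference 3.06 ± 0.38, adjusted p = 8.9e-06, edgeR quasi-likelihood test). Uox, the urate oxidase of liver, read 1.79, 2.59 and 2.93 CPM against 0.411, 0.399 and 0.243 CPM (2.79 ± 0.34, adjusted p = 4.4e-06), and its difference at day 14 was 4.01. Procr, the endothelial receptor of protein C, read 7.39, 8.31 and 8.15 CPM against 1.49, 1.79 and 1.07 CPM (2.45 ± 0.24). Tecta, known as a protein of the inner ear, read 1.90, 1.64 and 2.11 CPM against 0.462, 0.598 and 0.292 CPM (2.06 ± 0.29), and the protease inhibitor Pi15 rose by 2.14 ± 0.37. In all 5 the lesion libraries lay above the contralateral ones. Sbno2, a transcriptional regulator, was among the 10 genes with the smallest adjusted p, at 31.5, 31.5 and 33.2 CPM against 16.5, 14.8 and 15.1 CPM (1.05 ± 0.09).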
